A study of Mus musculus with 21 samples.

Results

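Apln, Apela and Aplnr encode the apelin system of the mouse: a pair of peptide ligands and the receptor they share. They were taken by symbol from the count tables, and all 3 were found among the 48321 symbols listed. Apln was chosen because it is among the largest falls when the TWIST1 monomer is induced in its own line, so that contrast is described here with no test. Apela and Aplnr were added as the other ligand and the receptor. All 3 passed the filter on low counts that left 14311 genes for testing.

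RNA was sequenced from embryoid bodies on day 3 of differentiation, when stem cells grown as floating clumps begin to form the germ layers. TWIST1, of the basic helix-loop-helix class, pairs with a second TWIST1 or with an E-protein such as TCF3, TCF4 or TCF12 to bind DNA. The cells were A2loxCre embryonic stem cells (labelled strain C57BL/6), in which a coding sequence was integrated downstream of a doxycycline-inducible promoter, and protein expression was induced 16 h before collection. There were 7 groups of 3 samples.

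The parental A2loxCre line, with no TWIST1 construct, was treated with doxycycline. The line carrying the TWIST1 monomer was measured without and with doxycycline. 4 further lines, all measured with doxycycline, carried a TWIST1 homodimer or a dimer of TWIST1 with 1 of the 3 E-proteins. An untreated state was used here for the monomer line alone, so in the dimer lines the effect of induction and a difference between cell lines cannot be told apart. The labels do not say whether the samples of a group were separate cultures, so the p-values measure the spread between these samples, which may be technical.

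Totals ran from 6648842 to 15999693 counts per sample. Twist1 itself lay between 4.39 and 8.94 CPM (counts scaled to a common library total, with TMM factors) in the samples of the 2 groups with no induced construct. It lay between 585 and 647 CPM with the induced monomer and between 166 and 199 CPM with the homodimer. The range was 52.3 to 56.6 CPM in libraries labelled TCF3 dimer, 36.1 to 41.8 CPM with the TCF4 dimer and 39.0 to 48.3 CPM in libraries labelled TCF12 dimer. Tcf4 stood at 305 to 349 CPM with the TCF4 dimer, against 31.2 to 58.2 CPM elsewhere. Tcf3 lay between 151 and 159 CPM in libraries labelled TCF3 dimer and between 166 and 190 CPM in those labelled TCF12 dimer. Parental samples lay between 162 and 173 CPM. Tcf12 ranged from 53.2 to 118 CPM (median 108) in libraries labelled TCF12 dimer and from 91.3 to 120 CPM (median 102) in those labelled TCF3 dimer. Tcf3 thus went against the labels, being lower in libraries labelled TCF3 dimer than in those labelled TCF12 dimer, while Tcf12 overlapped between them. Other groups differed as well. Tcf3 lay between 175 and 183 CPM with the TCF4 dimer and between 180 and 188 CPM with the homodimer. In the monomer line Tcf3 lay between 154 and 159 CPM without doxycycline and between 148 and 178 CPM with it. The libraries labelled TCF3 dimer overlapped with both of these states. Tcf12 lay between 85.0 and 93.7 CPM with the TCF4 dimer, against 62.9 to 68.9 CPM in parental samples. Both groups are called by their labels throughout. Sample 1 labelled TCF12 dimer stood apart from its group: the biological coefficient of variation shared by all genes was 0.120 with it and 0.0539 without it. Pluripotency and epiblast genes summed to 4197 to 4301 CPM in parental samples and to 2108 to 3972 CPM elsewhere. The summed level of primitive streak genes was 227 to 269 CPM in parental samples and 24.6 to 52.5 CPM in every other group.

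The apelin receptor is a G protein-coupled receptor that acts mainly through inhibitory G proteins and arrestins. In the gastrulating embryo it is made by nascent mesoderm, and later by the endothelium and heart field, where the system guides the movement of mesendodermal and cardiac precursors and the growth of vessels. Apln is best known as a product of sprouting endothelium that is raised by low oxygen. Apela (also called Elabela or Toddler) acts earlier, and its RNA is found in pluripotent cells and early endoderm.

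Apln lies on the X chromosome (GRCm38, 48025146 to 48034853, minus strand), with 3149 exonic bases in 3 merged exons in GENCODE M21. Apela lies on chromosome 8 (65028417 to 65037336, minus strand), with 1004 exonic bases in 4 merged exons. Aplnr lies on chromosome 2 (85136225 to 85139923, plus strand) as 1 merged exon of 3699 bases. GENCODE M21 also places a non-coding transcript gene, Gm45886, over Apela on the same strand, and 297 of the 1004 exonic bases of Apela are shared with it. Reads from those bases may have been left out or assigned to either gene, so the level of Apela is uncertain to that extent.

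TWIST1 and the E-proteins bind E-boxes, sites of the form CANNTG, which read the same on both strands. Since both ligand RNAs changed in lines with an induced TWIST1 construct, the 250 bases before their RefSeq start sites are shown (build GRCm38.p6, 5′ to 3′ on the gene's strand), with each CANNTG in capitals. The Apln stretch is chrX:48034854-48035103 (minus strand) and the Apela stretch is chr8:65037337-65037586 (minus strand).
Apln: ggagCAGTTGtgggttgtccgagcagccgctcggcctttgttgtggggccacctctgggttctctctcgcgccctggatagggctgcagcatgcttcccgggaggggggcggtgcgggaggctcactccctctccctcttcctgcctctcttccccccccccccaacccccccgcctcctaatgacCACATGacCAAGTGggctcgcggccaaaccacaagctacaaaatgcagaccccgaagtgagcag
Apela: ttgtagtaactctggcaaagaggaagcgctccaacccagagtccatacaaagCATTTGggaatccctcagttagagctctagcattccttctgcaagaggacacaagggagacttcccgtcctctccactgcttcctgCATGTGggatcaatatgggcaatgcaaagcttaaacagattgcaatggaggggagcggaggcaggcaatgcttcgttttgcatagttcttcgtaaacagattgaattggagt

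The Apln stretch holds 3 matches, at 246, 64 and 56 bases before the start, and the Apela stretch holds 2, at 198 and 112 bases. Of 32851 RefSeq promoter stretches of the same length, 66.2% hold at least 1 match, 31.8% at least 2 and 12.2% at least 3. Both stretches share 1 form of the site, CACATG, which is CATGTG on the other strand and occurs in 12.3% of promoters. These are matches of letters, and binding was not measured in these samples.

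**Figure D1:**
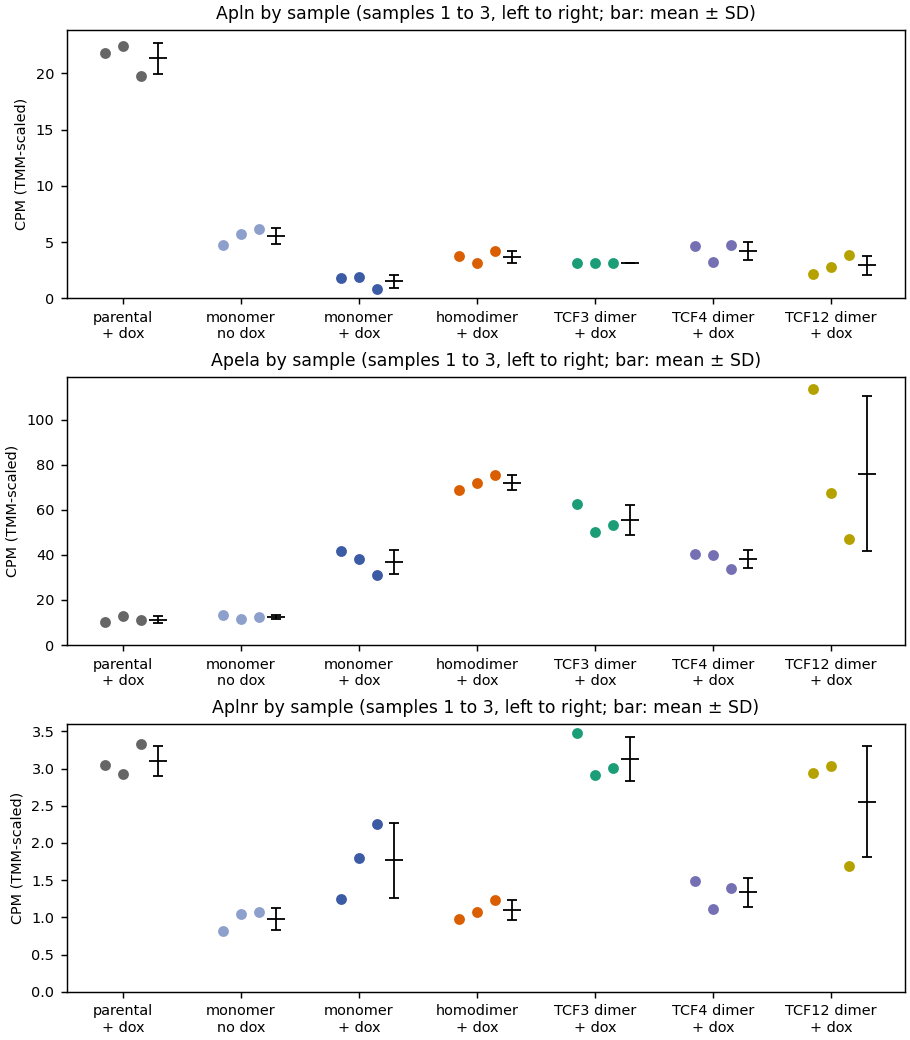
Level of Apln, Apela and Aplnr in each of 21 samples, in CPM scaled by TMM factors (linear axes from 0). Points are samples 1 to 3 of each group and the bars are the mean ± SD (n = 3). Apln is highest in the 3 parental samples (19.8 to 22.4 CPM), and Apela is lowest in the parental and uninduced monomer samples (10.0 to 13.3 CPM). TCF3 dimer and TCF12 dimer are the labels of those libraries.

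Apln, the ligand best known from endothelium, was far lower in every dimer line than in parental samples. The parental samples 1 to 3 stood at 21.8, 22.4 and 19.8 CPM, from 200, 207 and 196 counts. With the homodimer the samples stood at 3.78, 3.14 and 4.22 CPM, a mean of 17.4% of the parental mean. With the TCF4 dimer they stood at 4.64, 3.25 and 4.74 CPM (19.7% of the parental mean). No sample of either dimer line came near the lowest parental one.

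The libraries labelled TCF3 dimer gave 3.14, 3.18 and 3.17 CPM for Apln (14.8% of the parental mean). Those labelled TCF12 dimer gave 2.20, 2.79 and 3.87 CPM (13.9%). All 12 samples of the 4 dimer groups thus lay below 5 CPM, with no overlap with the parental samples. Apln fell by 2.53 ± 0.19 on the log2 scale with the homodimer (adjusted p = 2.5e-08, edgeR quasi-likelihood test with Benjamini-Hochberg adjustment, as for every adjusted p here). It fell by 2.33 ± 0.18 with the TCF4 dimer (adjusted p = 2.9e-08). The falls were 2.75 ± 0.19 in libraries labelled TCF3 dimer (adjusted p = 2.5e-09) and 2.83 ± 0.19 in those labelled TCF12 dimer (adjusted p = 3.4e-09). The errors are standard errors from the fit of all 21 samples, 3 a group, in which the groups share their spread. In these bulk samples, fewer cells that make an RNA and less of it per cell cannot be told apart.

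For scale, 4.02% of tested genes were called lower with the homodimer against the parental line, 12% in libraries labelled TCF3 dimer, 5.67% with the TCF4 dimer and 11.5% in libraries labelled TCF12 dimer. Genes called lower in all 4 made up 1.46% (209 genes), with Apln among them. These comparisons share the parental samples. Ordered by log2 fold change from the lowest, Apln ranked 21, 22, 27 and 19 of 14311 in the homodimer, TCF3, TCF4 and TCF12 sets.

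In the monomer line Apln was at 4.72, 5.75 and 6.15 CPM without doxycycline and at 1.82, 1.91 and 0.860 CPM with it, from 8 to 17 counts in the induced samples. These samples chose the gene, so the values are given with no test. The 2 states did not overlap, and the log2 fold change was -1.87 ± 0.25. From the lowest log2 fold change, Apln ranked 15 of 14311 genes, a place that its choice used. On monomer induction 0.475% of tested genes were called lower, and 2% in either direction. Against the parental line Apln was at 26.0% of the parental mean before induction and at 7.18% after it. The uninduced monomer samples therefore already lay below the parental ones, with a log2 difference of -1.92 ± 0.18. Set against these uninduced samples, the dimer lines differed far less for Apln, again with no test. The log2 difference was -0.60 with the homodimer and -0.40 with the TCF4 dimer, where samples overlapped. It was -0.82 in libraries labelled TCF3 dimer and -0.90 in those labelled TCF12 dimer.

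Apela, the ligand of pluripotent cells and early endoderm, went the other way in the induced lines. The parental samples stood at 10.0, 12.8 and 11.2 CPM and the uninduced monomer samples at 13.3, 11.7 and 12.4 CPM. These 2 groups overlapped, with a log2 difference of 0.13 (95% interval -0.40 to 0.67, adjusted p = 0.79, edgeR). With doxycycline the monomer samples stood at 41.6, 38.0 and 31.2 CPM, 326% of the parental mean.

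The homodimer samples reached 68.6, 72.1 and 75.5 CPM for Apela, and those of the TCF4 dimer line 40.6, 40.1 and 33.7 CPM. The libraries labelled TCF3 dimer stood at 62.7, 50.1 and 53.2 CPM. Those labelled TCF12 dimer were spread widely, at 114, 67.4 and 46.9 CPM, with sample 1 the highest of all 21. Every induced sample was above every parental and every uninduced sample.

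Apela rose against the parental line by 1.70 ± 0.24 on the log2 scale with the induced monomer (adjusted p = 2.7e-05, edgeR). The rise was 2.67 ± 0.23 with the homodimer (adjusted p = 1.7e-07) and 1.75 ± 0.23 with the TCF4 dimer (adjusted p = 2.8e-05). It was 2.29 ± 0.23 in libraries labelled TCF3 dimer (adjusted p = 4.3e-07) and 2.74 ± 0.23 in those labelled TCF12 dimer (adjusted p = 6.2e-08), or 2.33 without sample 1 of the latter. In these comparisons the share of tested genes called higher was 10.8% with the induced monomer and 4.81% with the homodimer. The figures were 16.3%, 7.18% and 15.5% in the TCF3, TCF4 and TCF12 sets. Genes called higher in all 5 induced lines made up 1.28%. Those that were also not called in the uninduced monomer line made up 0.79% (113 genes), and Apela was one of them.

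Induced and uninduced monomer samples differed by 1.57 ± 0.24 for Apela, which is given with no test because Apln was chosen on that contrast. Each dimer group also lay above the uninduced monomer line for Apela. The differences were 2.53 with the homodimer (adjusted p = 1.3e-07), 2.15 in libraries labelled TCF3 dimer (adjusted p = 9.5e-07), 1.61 with the TCF4 dimer (adjusted p = 2.4e-05) and 2.61 in libraries labelled TCF12 dimer (adjusted p = 5.0e-08, edgeR). In these comparisons 22.8%, 28.9%, 32.3% and 37% of tested genes were called in either direction. Aplnr was higher there in libraries labelled TCF3 dimer by 1.64 ± 0.25 (adjusted p = 7.1e-05) and in those labelled TCF12 dimer by 1.33 ± 0.26 (adjusted p = 0.00056), and was not called with the homodimer (0.13, adjusted p = 0.87) or the TCF4 dimer (0.42, adjusted p = 0.35).

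Aplnr, the receptor, was low everywhere, with 5 to 42 counts per sample. The parental samples stood at 3.05, 2.93 and 3.33 CPM. The uninduced monomer samples lay lowest, at 0.813, 1.05 and 1.07 CPM, and the homodimer samples at 0.971, 1.08 and 1.23 CPM were close to them. Neither group overlapped with the parental samples. A level of 3 counts corresponds to 0.188 to 0.451 CPM, so the lowest samples were only a few counts above that floor.

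The induced monomer samples stood at 1.25, 1.80 and 2.26 CPM for Aplnr, and the TCF4 dimer samples at 1.49, 1.11 and 1.40 CPM. In contrast, libraries labelled TCF3 dimer stood at 3.47, 2.91 and 3.01 CPM, within reach of the parental values. The libraries labelled TCF12 dimer gave 2.94, 3.04 and 1.69 CPM, so samples 1 and 2 lay at the parental level and sample 3 below it.

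Against the parental line Aplnr fell by 1.63 ± 0.26 on the log2 scale in the uninduced monomer line (adjusted p = 0.00017, edgeR). It fell by 1.49 ± 0.25 with the homodimer (adjusted p = 0.00041) and by 1.20 ± 0.23 with the TCF4 dimer (adjusted p = 0.0010). The fall of 0.80 ± 0.23 with the induced monomer (adjusted p = 0.018) did not pass without parental sample 3 (adjusted p = 0.063) or without induced monomer sample 1 (adjusted p = 0.11). In the uninduced and the induced monomer line 9.43% and 9.22% of tested genes were called lower. Aplnr did not differ detectably in libraries labelled TCF3 dimer (0.01, 95% interval -0.41 to 0.44, adjusted p = 0.98) or TCF12 dimer (-0.29, interval -0.73 to 0.15, adjusted p = 0.30). Induced and uninduced monomer samples differed by 0.82 ± 0.29, with no overlap and given with no test.

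**Figure D2:**
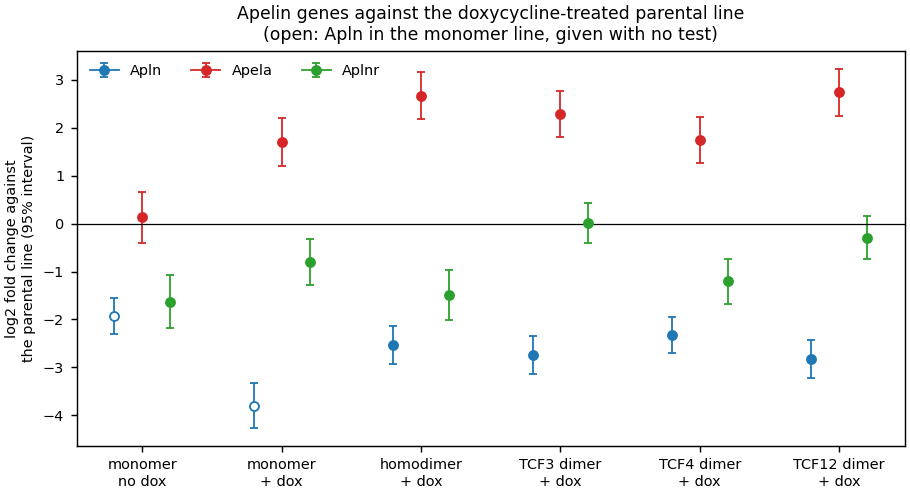
Log2 fold change of each apelin gene against the doxycycline-treated parental line, with 95% intervals, in 6 groups (n = 3 each). Open circles are Apln in the monomer line, given with no test. Apln is below 0 in all 6 groups, Apela lies between 1.70 and 2.74 in the 5 induced lines and at 0.13 in the uninduced line, and Aplnr ranges from -1.63 to 0.01. TCF3 dimer and TCF12 dimer are labels of libraries.

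The order of the group means differed between the 3 genes. For Apln it ran, from the lowest, induced monomer, TCF12 dimer, TCF3 dimer, homodimer, TCF4 dimer, uninduced monomer and parental. The 4 dimer groups in the middle overlapped at each step among themselves, and none of these steps was called (adjusted p from 0.54 to 0.83, edgeR). For Apela the order ran parental, uninduced monomer, induced monomer, TCF4 dimer, TCF3 dimer, homodimer and TCF12 dimer. The gap from uninduced to induced monomer was free of overlap, and so were those from the TCF4 to the TCF3 set and from there to the homodimer. These last 2 steps were not called (adjusted p = 0.075 and 0.21). When sample 1 labelled TCF12 dimer was left out of the fit they were called, at 8.7e-05 and 0.0018. For Aplnr, neighbours in the order uninduced monomer, homodimer, TCF4 dimer, induced monomer, TCF12 dimer, parental and TCF3 dimer overlapped at all 6 steps, and none was called.

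Across the 21 samples the log2 levels of Apln and Apela had a Pearson r of -0.69 (Spearman's rho -0.61). Aplnr followed neither ligand, with r = 0.21 to Apln and 0.05 to Apela. These are descriptions over samples that fall into 7 groups.

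The ratio of the ligand RNAs within a sample does not depend on how libraries are scaled to each other. Per kilobase of exon, the parental samples held 1.44, 1.79 and 1.78 Apela counts for each Apln count. The uninduced monomer samples held 8.87, 6.39 and 6.32. Induced monomer samples held 71.7, 62.4 and 114, so the ligand RNA was almost wholly Apela, at 98.7% of the sum on average against 62.4% in parental samples. Apln was chosen for its fall on monomer induction, so that choice partly sets the ratios of the monomer line. Its counts were only 8 to 17 in the induced monomer samples. The ratio lay between 56.2 and 72.0 with the homodimer and between 22.3 and 38.7 with the TCF4 dimer. It lay between 49.5 and 62.6 in libraries labelled TCF3 dimer and between 38.0 and 162 in those labelled TCF12 dimer. On the same scale of CPM per kilobase, the parental levels were 6.78 ± 0.44 for Apln, 11.3 ± 1.4 for Apela and 0.839 ± 0.056 for Aplnr (SD, n = 3).

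**Figure D3:**
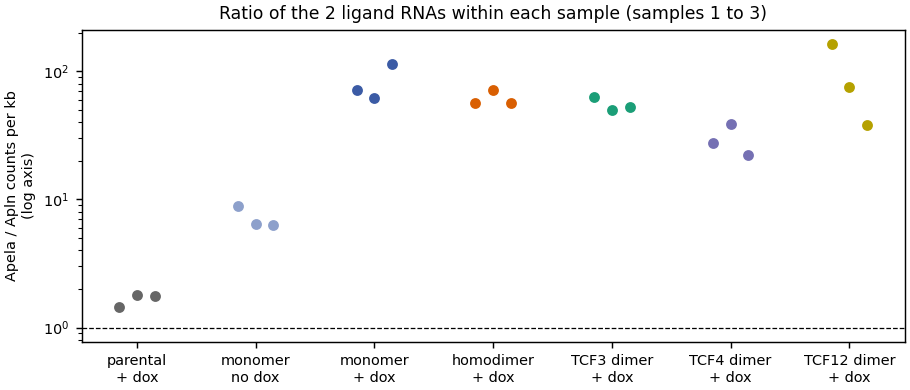
Ratio of Apela to Apln counts per kilobase of exon in each of 21 samples (log axis, dashed line at 1). Points are samples 1 to 3 of each group. All 15 induced samples lie at 22.3 or above, the uninduced monomer samples between 6.32 and 8.87 and the parental samples between 1.44 and 1.79. Apln was chosen from the monomer line, which partly sets the ratios there.

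The dimer lines were also compared among themselves, where the partner of TWIST1, the level of Twist1 RNA and the cell line cannot be told apart. Apln was not called in any of these pairs (adjusted p from 0.14 to 0.83), although without sample 3 labelled TCF12 dimer the other samples of that label lay below the TCF4 dimer line by 0.75 (adjusted p = 0.020). The mean of the 3 heterodimer groups against the homodimer was -0.11 (95% interval -0.49 to 0.27, adjusted p = 0.79, edgeR). Aplnr did differ: it was higher in the heterodimer groups than with the homodimer by 1.00 ± 0.22 (adjusted p = 0.0034), where 14% of tested genes were called, although single samples of the groups overlapped.

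By partner, Aplnr was higher than with the homodimer by 1.51 ± 0.24 in libraries labelled TCF3 dimer (adjusted p = 0.00013, 22.9% of genes called). It was higher by 1.20 ± 0.25 in those labelled TCF12 dimer (adjusted p = 0.0027, 15.4% called), although not when only these 2 groups were fitted (adjusted p = 0.12). With the TCF4 dimer the difference was 0.29 (95% interval -0.27 to 0.86, adjusted p = 0.78, 5.83% called). The libraries labelled TCF3 dimer exceeded the TCF4 dimer line by 1.21 ± 0.22 for Aplnr (adjusted p = 0.00054, 19.7% called). A difference of 0.91 ± 0.23 between libraries labelled TCF12 dimer and the TCF4 dimer line (adjusted p = 0.035, 3.24% called) was lost when any of samples 1, 2 and 3 of the TCF4 dimer line (adjusted p = 0.066, 0.13 and 0.13) or samples 1 and 2 labelled TCF12 dimer (0.081 and 0.063) was left out.

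Apela was lower with the TCF4 dimer than with the homodimer by 0.92 ± 0.21 (adjusted p = 0.0094, or 0.062 without sample 3 of the TCF4 dimer line). The libraries labelled TCF12 dimer exceeded the TCF4 dimer line by 0.99 ± 0.21 (adjusted p = 0.016). That call was lost without sample 2 or 3 of the TCF4 dimer line (adjusted p = 0.058 and 0.11), and without sample 1 labelled TCF12 dimer the difference was 0.59 (adjusted p = 0.0013). Against the homodimer line the latter libraries differed by 0.07 (95% interval -0.35 to 0.50, adjusted p = 0.83) with their sample 1, and by -0.34 without it (adjusted p = 0.024). The heterodimer mean against the homodimer was -0.41 (adjusted p = 0.11), or -0.55 without that sample (adjusted p = 3.3e-06). No member was called between libraries labelled TCF3 dimer and TCF12 dimer, where 18.8% of genes were, and Apela differed there by -0.45 (adjusted p = 0.12, or 0.0049 for -0.68 without sample 3 labelled TCF12 dimer).

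Twist1 RNA was lower in each dimer group than with the induced monomer, and its part in the following differences was not tested. Set against the induced monomer line, Apela was higher by 0.96 ± 0.21 with the homodimer (adjusted p = 0.0027, 18.5% of genes called) and by 1.04 ± 0.21 in libraries labelled TCF12 dimer (adjusted p = 0.00083, 33.5% called). Without sample 1 of those libraries the difference was 0.64 (adjusted p = 5.2e-05), and with only these 2 groups fitted its adjusted p was 0.092. Apela was at nearly the same level in the TCF4 dimer and the monomer line (0.04, 95% interval -0.40 to 0.49, adjusted p = 0.91, 27.4% called). In libraries labelled TCF3 dimer the difference of 0.58 ± 0.21 lay at the threshold (adjusted p = 0.054, 22.1% called). It passed with the replicate number as a block (adjusted p = 0.033), with DESeq2 (0.045) and in the fit of 20 samples (5.5e-05). Aplnr was higher in libraries labelled TCF3 dimer than with the induced monomer by 0.81 ± 0.23 (adjusted p = 0.013). That call was lost without induced monomer sample 1 (adjusted p = 0.089) or sample 1 labelled TCF3 dimer (0.054). Apln values in the 4 dimer groups were all above those of the induced monomer line, by 0.97 to 1.47 on the log2 scale, with no test.

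Against the parental line, 19.9%, 20%, 8.84%, 28.3%, 12.9% and 27% of all tested genes were called in the uninduced monomer, induced monomer, homodimer, TCF3, TCF4 and TCF12 sets. The genes through which the receptor signals moved in both directions. Of 15 tested G protein, arrestin and receptor kinase genes, with the deacetylases downstream of them, 5 were called in the uninduced monomer line (1 higher, 4 lower) and 5 in the induced one (1 higher, 4 lower). With the homodimer 1 was lower. Of the list, 5 rose and 3 fell in libraries labelled TCF3 dimer, 1 and 2 with the TCF4 dimer, and 3 and 3 in libraries labelled TCF12 dimer. The median log2 fold change of the list lay between -0.10 and 0.10, and that of all tested genes between 0.00 and 0.02. Arrb1, a beta-arrestin that takes receptors out of signalling, fell in all 6 groups, from 94.8 ± 4.8 CPM in parental samples to between 34.8 ± 1.3 CPM with the induced monomer and 67.3 ± 2.3 CPM with the TCF4 dimer (SD, n = 3). Gnai2, an inhibitory G protein subunit, was lower in 5 of 6 groups, by at most 0.44.

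Enzymes that cut the precursors or break down the peptides were mostly not called. Of 10 listed, 8 were tested, with between 0 and 3 higher and between 0 and 2 lower in a group. Furin, a convertase that cuts peptide precursors, rose from 31.5 ± 2.0 CPM in parental samples to 45.1 ± 2.2 CPM in the uninduced and 40.3 ± 0.55 CPM in the induced monomer line, and to 39.2 ± 0.96 CPM in libraries labelled TCF3 dimer. Pcsk1, another convertase, fell in the same 3 groups, from 3.35 ± 0.35 CPM to 1.44 ± 0.30, 0.998 ± 0.28 and 2.08 ± 0.34 CPM. Of 7 related receptors 3 were tested, and Cxcr4, a chemokine receptor of early endoderm, was called lower with the homodimer (-1.05), with the TCF4 dimer (-1.02) and in libraries labelled TCF12 dimer (-0.97).

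Of 7 tested genes known to respond to apelin in endothelium, between 0 and 2 were higher and between 0 and 2 lower in a group. Mef2c, a transcription factor of heart and vessel, rose from 1.78 ± 0.73 CPM in parental samples to 6.42 ± 1.8 CPM in libraries labelled TCF3 dimer, 4.50 ± 1.3 CPM with the TCF4 dimer and 7.52 ± 1.2 CPM in libraries labelled TCF12 dimer. It did not pass in the other 3 groups.

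Low oxygen is a known inducer of Apln, and 14 other genes that it induces were tested. The calls were 5 higher and 2 lower in the uninduced monomer line, 4 and 3 in the induced one, 1 and 3 with the homodimer, 3 and 2 in libraries labelled TCF3 dimer, 1 and 4 with the TCF4 dimer and 2 and 8 in those labelled TCF12 dimer. Their median log2 fold change ran from 0.17 with the induced monomer to -0.55 in libraries labelled TCF12 dimer. Any part of low oxygen in the Apln levels was not tested. Vegfa, the vessel growth factor, was at 6.89 ± 0.57 CPM in parental samples and rose to 20.3 ± 3.4 and 19.1 ± 0.35 CPM in the uninduced and induced monomer line. It also rose to 12.2 ± 1.7 CPM in libraries labelled TCF3 dimer, and it fell to 3.76 ± 0.70 CPM in those labelled TCF12 dimer. Slc2a1, a glucose transporter, fell in 5 of 6 groups, with the lowest mean with the induced monomer (272 ± 20 CPM against 539 ± 29 CPM).

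Apela and its receptor are known to act beside Nodal in the formation of mesendoderm. Of 12 tested genes of that pathway, between 0 and 2 were higher and between 4 and 6 lower in each group against the parental line. Nodal itself fell in all 6 groups, from 81.3 ± 5.1 CPM to 44.0 ± 2.8 CPM in the uninduced monomer line and to between 12.3 ± 0.88 and 27.8 ± 2.9 CPM in the induced ones. Its co-receptor Tdgf1 was also called lower in all 6 groups, with log2 fold changes from -0.29 to -1.24. The 5 induced groups were also those in which Apela was raised, and a link between Apela and Nodal was not tested.

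Levels of cell type markers also differed between the groups, and their part in the results was not tested. Of 9 tested primitive streak genes, between 7 and 9 were lower in every group, with medians from -2.84 to -3.55. Their summed level was already 45.4 to 52.5 CPM in the uninduced monomer line, where Apln and Aplnr were low as well. T, the streak transcription factor, was at 26.1 ± 3.0 CPM in parental samples, 9.68 ± 1.8 CPM with the homodimer and 1.19 to 1.63 CPM on average in the other 5 groups.

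Of 8 tested genes of lateral and cardiac mesoderm, a tissue known to make the receptor, 6 were called higher in libraries labelled TCF3 dimer, 4 with the TCF4 dimer and 7 in libraries labelled TCF12 dimer. With the homodimer 0 were higher and 2 lower, and in each state of the monomer line 2 were higher and 0 lower. Their summed level was 82.5 to 105 CPM in libraries labelled TCF3 dimer, where Aplnr averaged 3.13 CPM, and 17.9 to 18.6 CPM with the homodimer. Parental samples had nearly the same Aplnr mean as the TCF3 set, 3.10 CPM, with a sum of 18.8 to 21.7 CPM. The sum was 54.7 to 67.5 CPM in the uninduced monomer line, where Aplnr was lowest. Most of the latter sum was Pdgfra, a growth factor receptor of mesoderm and extraembryonic endoderm, at 43.9 ± 5.6 CPM against 9.38 ± 0.86 CPM in parental samples. The median log2 fold change of the list there was -0.01. Pdgfra was also a large part of the sum in libraries labelled TCF3 dimer, at 42.9 ± 1.2 CPM, where the median was 2.50. Kdr, a receptor of vessel and blood precursors, rose from 2.17 ± 0.97 CPM in parental samples to 15.4 ± 2.1 CPM, 5.85 ± 0.78 CPM and 9.85 ± 3.7 CPM in the TCF3, TCF4 and TCF12 sets.

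Endoderm markers differed between the groups in which Apela was raised. Of 6 tested definitive endoderm genes, 5 were lower with the homodimer, with the TCF4 dimer and in libraries labelled TCF12 dimer. Their sum there was 10.1 to 14.0 CPM against 29.1 to 37.4 CPM in parental samples. In the induced monomer line 2 were higher and 2 lower, with a sum of 42.3 to 52.4 CPM. In the uninduced one 2 were higher and 1 lower (46.4 to 52.5 CPM), and in libraries labelled TCF3 dimer 1 and 3 (28.5 to 31.1 CPM). Of 11 tested extraembryonic endoderm genes, 10 were higher in the uninduced monomer line, in the induced one and in libraries labelled TCF3 dimer. With the homodimer, with the TCF4 dimer and in libraries labelled TCF12 dimer, 7, 10 and 9 of them were lower and 0 higher. Their sum was 3184 to 3737 CPM in the uninduced and 3113 to 3399 CPM in the induced monomer line, against 834 to 849 CPM in parental samples and 453 to 621 CPM in those 3 groups. The sum in libraries labelled TCF3 dimer was 1877 to 2386 CPM. Of 10 tested endothelial genes, 8 were higher in libraries labelled TCF3 dimer, 4 higher and 1 lower in those labelled TCF12 dimer, and between 1 and 3 higher in the other 4 groups. Against the homodimer 6 were higher in the heterodimer groups. Cd34 rose in all 5 induced lines, from 5.13 ± 0.36 CPM in parental samples to between 58.7 ± 5.0 and 146 ± 21 CPM, and stood at 5.86 ± 1.3 CPM in the uninduced monomer line. Cdh5, the endothelial cadherin, rose from 1.70 ± 0.60 CPM in parental samples to 5.88 ± 0.77 CPM in the uninduced and 7.54 ± 1.5 CPM in the induced monomer line, and to 6.58 ± 1.4 CPM in libraries labelled TCF3 dimer. Emcn was at 0 in the parental, both monomer and the TCF4 dimer groups. Of 12 tested pluripotency and epiblast genes, 9 were lower with the TCF4 dimer and in libraries labelled TCF12 dimer, where 0 and 1 were higher. Of that list, 6 were higher and 2 lower in the uninduced monomer line, 6 and 4 in the induced one, 3 and 5 with the homodimer, and 4 and 6 in libraries labelled TCF3 dimer. Of trophoblast genes, which mark another tissue known to make Apela, 3 of 7 were tested and none was called higher, while Tpbpa was at 0 in all groups.

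**Figure D4:**
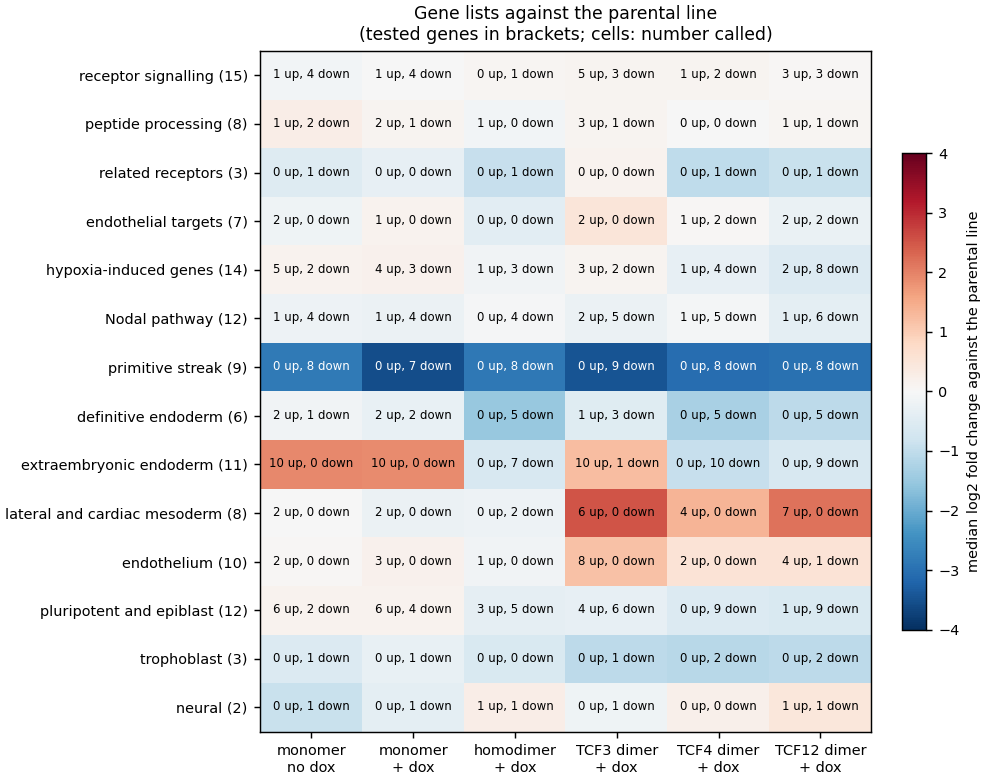
Median log2 fold change against the parental line (colour) of 14 gene lists in 6 groups, with the number of tested genes in brackets and the number called higher and lower in each cell. Primitive streak genes are lower in all 6 groups, and lateral and cardiac mesoderm genes are higher in the TCF3, TCF4 and TCF12 sets. TCF3 dimer and TCF12 dimer are labels of libraries.

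No neighbour on the chromosome moved as far as Apln in the same comparison, nor as far as Apela in the 5 induced lines. The 3 nearest tested genes on each side of Apln gave 36 values in the 6 comparisons with the parental line, of which 6 were called lower and 0 higher. The lowest was -0.97, for 9530027J09Rik in libraries labelled TCF3 dimer, and this value was not called. Around Apela 7 values were called higher and 12 lower, and the highest was 0.57 for Tmem192 in libraries labelled TCF12 dimer. Npy1r, a receptor for neuropeptide Y beside Apela, was called lower in 4 groups, by 1.51 with the induced monomer. Around Aplnr 2 values were called higher and 1 lower, with Ptprj, a receptor phosphatase, highest at 1.07 with the homodimer.

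Hprt, an X-linked housekeeping gene 4.95 Mb from Apln, also differed between the parental line and the others. It lay between 81.1 and 86.1 CPM in parental samples, between 3.32 and 4.56 CPM in the uninduced monomer line and between 5.81 and 32.6 CPM in the induced lines. Of the 26 tested genes between Apln and Hprt, which were counted after these values had been seen, between 3 and 9 were lower and between 0 and 3 higher in a group. Their medians ran from -0.27 to -0.10. Single values ran from -2.44 in libraries labelled TCF12 dimer to 1.52 in those labelled TCF3 dimer. The counts of lower genes were highest, at 9 and 8, in libraries labelled TCF3 dimer and with the induced monomer. Over all tested genes, the share called lower in a group ran from 4.02% to 12%, and the share called higher from 4.81% to 16.3%. On monomer induction 2 of the 26 were lower, against 0.475% of all tested genes. Whether the Apln and Hprt differences are linked was not tested.

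**Figure D5:**
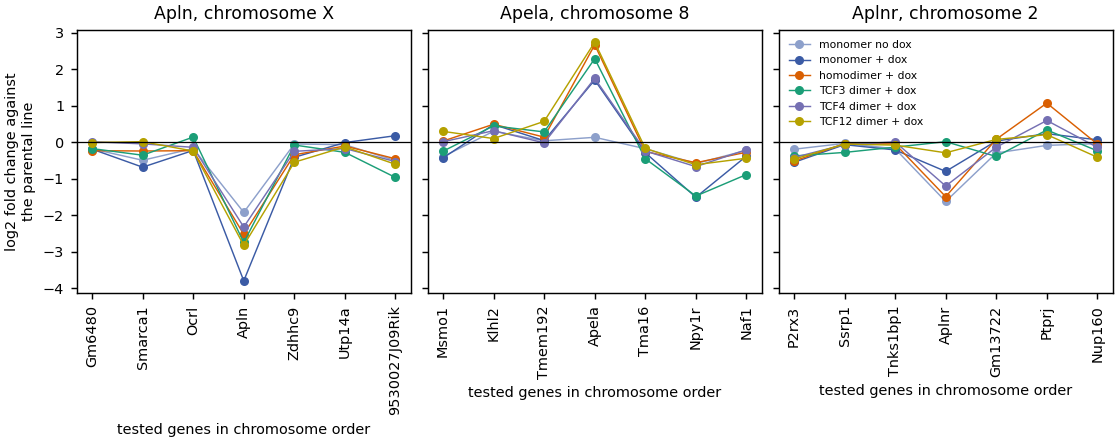
Log2 fold change against the parental line for each apelin gene and the 3 nearest tested genes on each side, in chromosome order with even spacing. Distances along the chromosome are not shown. Each line is 1 of 6 groups. Apln lies between -3.80 and -1.92 while its neighbours lie between -0.97 and 0.18, and Apela reaches 2.74 while its neighbours lie between -1.51 and 0.57. TCF3 dimer and TCF12 dimer are labels of libraries.

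The genes most like each member were sought by Pearson's r of log2(CPM + 0.5) over all 21 samples, which reflects the differences between the 7 groups. Apln was most like Fst, an activin inhibitor (r = 0.93, Spearman's rho 0.81), Nanog, a pluripotency factor (0.91, rho 0.85), Fzd10, a Wnt receptor (0.90, rho 0.66), Bcat1 (0.89) and Zfp36l3 (0.88). Fst stood at 101 CPM on average in parental samples, 11.8 CPM in the uninduced monomer line and 5.10 to 10.7 CPM in the induced ones. Nanog stood at 210 ± 8.2 CPM in parental samples and at 56.4 to 91.3 CPM on average elsewhere. Wt1, a transcription factor of mesoderm and kidney, ran most against Apln (r = -0.93), from 5.17 CPM in parental samples and 13.9 CPM in the uninduced monomer line to between 21.2 and 25.5 CPM in the induced ones.

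Apela had closer matches than the other members: 28 genes had r above 0.9, against 2 for Apln and 0 for Aplnr. The nearest were Plcd1, a phospholipase C (r = 0.98, rho 0.93), Smarcd2, a chromatin remodelling subunit (0.97), Eva1b (0.96), Cd34 (0.96) and Ppp3ca, the calcineurin catalytic subunit (0.96). Plcd1 stood at 7.40 CPM in parental samples, 7.57 CPM in the uninduced monomer line, 31.6 CPM in the induced one and 81.1 CPM with the homodimer. Tle3, a corepressor, and Ccnd1, cyclin D1, ran most against Apela (r = -0.96 and -0.92). Matches to Aplnr were weaker, led by Mab21l2 (r = 0.86, rho 0.78) and Mid2 (0.81, rho 0.85), with Zfp936 and Rnf10 at the other end (-0.85 and -0.83). Mab21l2 stood at 3.64 CPM in parental samples, 2.86 ± 0.96 CPM in libraries labelled TCF3 dimer and below 1 CPM in 4 other groups.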

How the data were processed

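RNA-seq libraries of 21 samples in 7 groups of 3 were made with a TruSeq mRNA kit, per the labels' protocols. The authors deposited 1 table per sample of unnormalized read counts by gene symbol. FastQC, TopHat2, HTSeq and the builds mm10 and GRCm38 are named in the submitters' processing notes, while versions, settings and annotation are not given in the sources used here. Dates had replaced 25 March and Sept symbols in 18 of the files, so the files were joined by position. The 3 files labelled TCF12 dimer keep the symbols, so this handling and the group cannot be told apart.

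All samples entered 1 fit with 1 mean per group in edgeR 4.0.16 (limma 3.58.1, R 4.3.3), with TMM factors, filterByExpr (a count of 10, a total of 15) and the quasi-likelihood F-test. P-values were adjusted over 14311 genes, and an adjusted p under 0.05 is a call. CPM uses TMM factors, and standard errors come from the F statistic. The fit and DESeq2 were tested on simulated data. Floors of 3 counts cover counting error only.

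Exon lengths came from GENCODE M21, and gene order and promoters from RefSeq GRCm38.p6, where 2 of the 3 members had a promoter entry. The members, lists and tests were chosen with earlier results of these data known. Named beside the members are, by rule, the construct genes and Hprt, 3 neighbours a side, the 5 most and 2 least alike genes, and up to 4 genes a list that passed in at least 3 of 6 comparisons with the parental line. Replicate numbers did not pair samples (mean correlation of deviations 0.0214 over 63 same-numbered pairs).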

Additional observations from a re-analysis of the deposited data

How the results depend on the processing

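For 66 member comparisons, 921 values were computed with DESeq2, RLE factors, library size only, no filter, a filter of 1 CPM in 3 samples, fits restricted to the groups compared, the replicate number as a block, 20 samples without sample 1 labelled TCF12 dimer, and without each sample in turn. The result held in 876, and direction in 914. For tested comparisons a held result means the same direction and call. Comparisons given with no test have no call, and there the value kept its sign and moved by less than the combined SD of the groups. Values below are log2 differences. With library size only, Apela passed for TCF3 dimer against monomer (0.64), TCF3 against TCF4 dimer (0.55) and heterodimers against homodimer (-0.43), turned to -0.031 for TCF12 dimer against homodimer, and Aplnr no longer passed for TCF12 against TCF4 dimer (0.83). With no filter, Aplnr no longer passed for induced monomer against parental (-0.80), and Apela passed for TCF3 dimer against monomer (0.60), TCF4 dimer (0.53) and TCF12 dimer (-0.45) and for heterodimers against homodimer (-0.41). With the replicate block Apela passed for TCF3 dimer against monomer (0.59) and TCF4 dimer (0.54), and no other member call changed. The numbers only name samples: deviations of same-numbered samples had correlations from -0.221 to 0.344. DESeq2 also passed Apela for TCF3 dimer against monomer (0.58). Fitted on only the groups compared, Apela passed for TCF3 dimer against monomer (0.60), homodimer (-0.38) and TCF4 dimer (0.55), while TCF12 dimer against monomer (1.03) and TCF4 dimer (1.00) no longer passed, nor did Aplnr for TCF12 dimer against homodimer (1.20) and TCF4 dimer (0.92). In the 20 samples Apela passed for TCF3 dimer against monomer (0.59), homodimer (-0.39) and TCF4 dimer (0.54). Leaving out 1 sample at a time changed calls or signs as follows. Aplnr ranged from -1.03 to -0.62 for induced monomer against parental, 0.62 to 1.03 for TCF3 dimer against monomer, 0.32 to 0.74 for TCF12 dimer against monomer, 0.74 to 1.14 for TCF12 against TCF4 dimer and -0.051 to 0.057 for TCF3 dimer against parental. Apela ranged from -0.97 to -0.84 for TCF4 dimer against homodimer, -0.34 to 0.32 for TCF12 dimer against homodimer, -0.55 to -0.32 for heterodimers against homodimer, 0.59 to 1.24 for TCF12 against TCF4 dimer, -0.68 to -0.052 for TCF3 against TCF12 dimer and -0.056 to 0.15 for TCF4 dimer against monomer. Apln ranged from -0.75 to -0.35 for TCF12 against TCF4 dimer and -0.083 to 0.35 for TCF3 against TCF12 dimer. The cause of these changes was not tested. Counts of all genes called moved by over 1.5 times in at least 1 alternative in each of the 22 comparisons. Against parental they were 2854 (2022 to 5312) for uninduced monomer, 2861 (2192 to 5106) for induced monomer, 1265 (919 to 3113) for homodimer, 4057 (3099 to 6700) for TCF3 dimer, 1839 (1249 to 4046) for TCF4 dimer and 3864 (824 to 6165) for TCF12 dimer. Monomer induction gave 286 (173 to 890). Against monomer the dimers gave 2642 (2002 to 4813), 3162 (2066 to 5896), 3928 (3070 to 6561) and 4799 (1516 to 6417), and against uninduced monomer 3259 (2440 to 5458), 4133 (3022 to 6870), 4620 (3559 to 7295) and 5302 (2023 to 6955). Against homodimer TCF3, TCF4 and TCF12 dimer gave 3282 (2409 to 5988), 835 (517 to 2612) and 2197 (346 to 4998), and the heterodimers 2007 (1305 to 4173). TCF3 against TCF4 dimer gave 2819 (1959 to 5828), TCF3 against TCF12 dimer 2686 (236 to 4986) and TCF12 against TCF4 dimer 464 (0 to 4868). Of the 5 genes most like each member, 1, 3 and 1 were shared with the ranking over 7 group means for Apln, Apela and Aplnr, and 2, 3 and 2 with that over 20 samples. Aplnr rested on 5 to 42 counts a sample, and Apln with the induced monomer on 8 to 17, which limits their precision.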
